A study of Canis lupus familiaris with 34 samples.

Results

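The genes described here are 10 components of interleukin 6 family signaling: the receptor genes OSMR, LIFR, IL6ST and IL6R, the ligand genes OSM, IL6, LIF and IL11, the transcription factor gene STAT3 and the feedback inhibitor gene SOCS3. They are 10 of 15115 genes that the array annotation gives at least 1 probe set of their own, and 16 probe sets read them. OSMR entered the list because of its difference between hemangiosarcoma lines and hematoma cultures, so all 10 genes are described in that comparison without a test. The cytokines of this family are secreted proteins that bring together receptor chains at the cell surface. Oncostatin M acts through a pair of OSMR with gp130, the product of IL6ST, or of LIFR with gp130, while interleukin 6 and interleukin 11 first bind IL6R and the interleukin 11 receptor. The paired chains activate JAK kinases, these activate STAT3, and STAT3 induces SOCS3, which shuts the receptor down. In connective tissue cells and endothelium the family is known for inducing acute phase, matrix and adhesion genes.

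Expression was measured on 34 Affymetrix Canine_2 arrays, 1 for each dog or line. Hemangiosarcoma, a malignant tumor of blood vessel-forming cells, gave 10 cultured lines: 6 from Golden Retrievers (ChadG4, ChadG6, ChadG8, Frog, Journey and Tucker) and 1 each from a Rottweiler (Joey), a Golden Retriever x Great Pyrenees cross (DD1), a Portuguese Water Dog (ChadP9) and a Dalmation (Dal4). Splenic hematoma, a non-malignant lesion, gave 3 cultures, from a Golden Retriever (Pippin), a Standard Poodle (Baxter) and a Keeshond (Kylie). Osteosarcoma gave 5 Golden Retriever lines. The 16 lymphoid samples were primary tumor cells, not cultures: 1 acute lymphoblastic leukemia from a Golden Retriever mix, and from Golden Retrievers 2 chronic lymphocytic leukemias, 6 diffuse large B cell lymphomas, 1 marginal zone B cell lymphoma and 6 T-zone lymphomas. The hemangiosarcoma and hematoma cultures had been grown under conditions that favor endothelial cells and were used at early or low passage, so they stand for what grew out of each lesion. Frog and Journey were relatives. A level is the deposited log2 intensity of a probe set, on which 1 unit is a doubling and the medians of the arrays lie between 5.57 and 5.77. Levels of different probe sets are not compared with each other.

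More markers of connective tissue than of the labelled lineage lay above the array median in these cultures. Of 8 endothelial markers 0 to 3 did so on each hemangiosarcoma array, and PECAM1, CDH5, TEK and EMCN on none of the 10. Of 5 osteoblast markers 0 to 2 did so on each osteosarcoma array, and RUNX2, SPP1 and IBSP on none of the 5, whereas 8 or 9 of 9 fibroblast and mural markers did on each culture from hemangiosarcoma and all 9 on each from hematoma and osteosarcoma. The hybridization control signal was 8.95 to 9.54 in hemangiosarcoma, 9.15 to 9.92 in hematoma, 9.66 to 10.57 in osteosarcoma and 9.78 to 11.12 in the lymphoid tumors, and its part in the differences below was not tested. The highest correlation between any pair of arrays was 0.985. The osteosarcoma line OSCA20 was as alike to the hemangiosarcoma lines as to its own group: it correlated at 0.952 on average with the other osteosarcoma lines and at 0.953 with the hemangiosarcoma lines, and for the other 4 lines the latter was 0.92 to 0.947.

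OSMR, the chain that gives oncostatin M its own receptor, was higher in each hemangiosarcoma line than on all other arrays except that of 1 osteosarcoma line. Its level was 8.96 in ChadG4, 8.84 in ChadG6, 9.48 in ChadG8, 9.96 in Frog, 9.14 in Journey, 9.91 in Tucker, 9.42 in Joey, 9.27 in DD1, 8.48 in ChadP9 and 8.43 in Dal4. In the hematoma cultures it was 7.14 in Pippin, 6.16 in Baxter and 7.35 in Kylie. Every hemangiosarcoma line thus lay above every hematoma culture, and all 13 lay above their array medians. Of all probe sets tested between these groups 1.56% did not overlap. As OSMR was chosen on this difference, nothing is read from its separation from hematoma. Among osteosarcoma lines the level was 9.14 in OSCA20, 7.10 in OSCA23, 7.39 in OSCA59, 6.89 in OSCA75 and 6.51 in OSCA71. Only OSCA20 reached the hemangiosarcoma range, and the other 4 fell among or beside the hematoma cultures. In the 16 lymphoid tumors OSMR ran from 3.84 over a median of 5.0 to 5.73, above the array median on 1 array, the chronic lymphocytic leukemia of Maddle.

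Ordered by mean, OSMR was highest in hemangiosarcoma (9.19 ± 0.53, SD, n = 10), followed by osteosarcoma (7.41 ± 1.02, SD, n = 5) and hematoma (6.88 ± 0.64, SD, n = 3). Osteosarcoma and hematoma differed by less than the spread of the osteosarcoma lines. The lymphoid labels came below, at 5.42 for the 2 chronic lymphocytic leukemias, 4.91 for T-zone lymphoma and 4.83 for diffuse large B cell lymphoma, and their ranges overlapped one another.

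**Figure D1:**
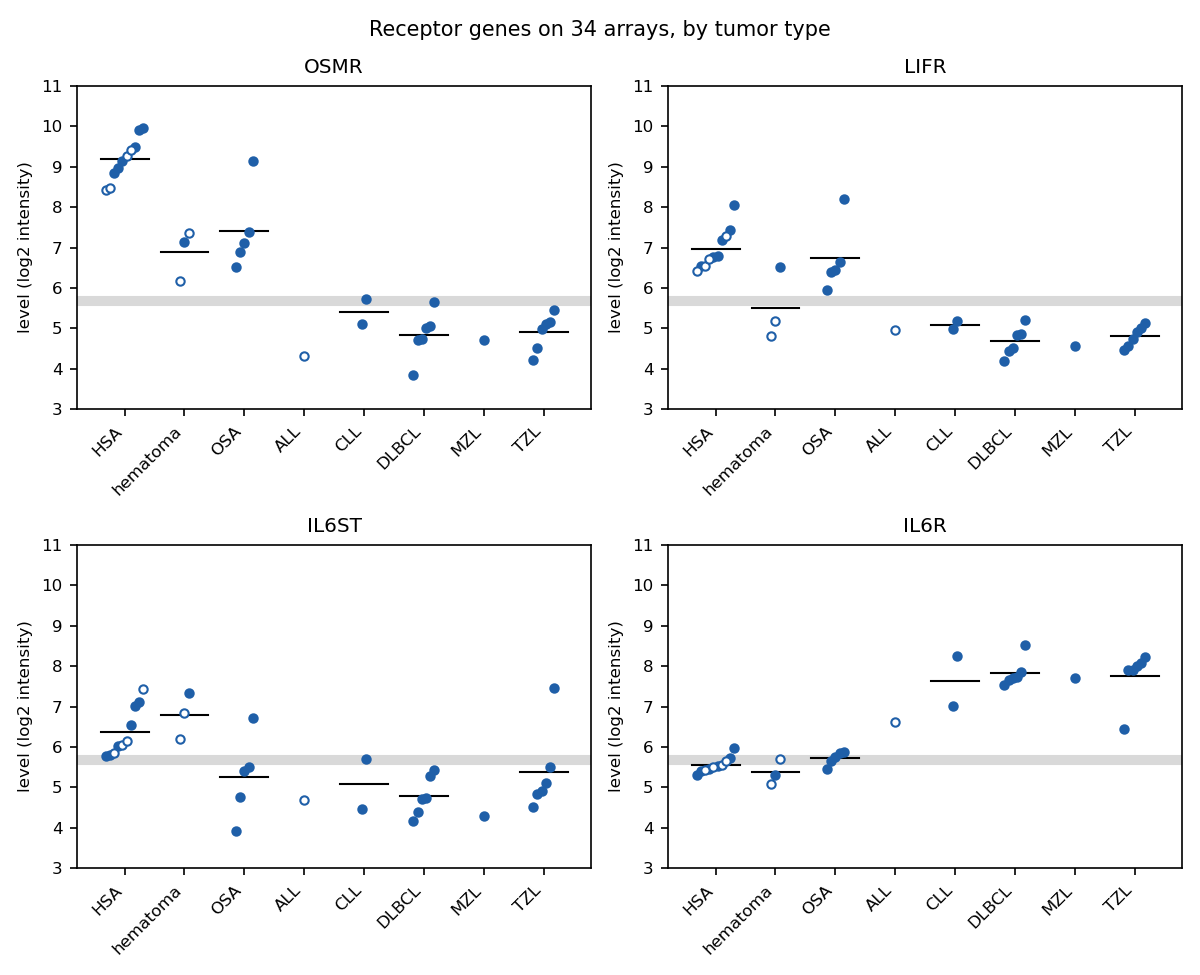
Levels (log2 intensity, vertical axis) of OSMR, LIFR, IL6ST and IL6R on each of 34 arrays by tumor type (HSA, hemangiosarcoma; OSA, osteosarcoma; ALL and CLL, acute lymphoblastic and chronic lymphocytic leukemia; DLBCL, MZL and TZL, diffuse large B cell, marginal zone and T-zone lymphoma). Filled points are Golden Retrievers, open points other breeds or mixes, lines are group means and the gray band spans the array medians; OSMR is at 8.43 to 9.96 in HSA and IL6R at 6.43 to 8.51 in the lymphoid tumors.

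LIFR, the receptor of leukemia inhibitory factor and an alternative partner for oncostatin M, was present in both kinds of sarcoma line. The probe set that stands for it ran from 6.43 in ChadP9 over a median of 6.77 to 8.05 in ChadG4 in hemangiosarcoma. The hematoma cultures were at 6.52 in Pippin, 4.80 in Baxter and 5.17 in Kylie, so that Pippin alone reached the hemangiosarcoma range. The osteosarcoma lines were at 6.45 in OSCA20, 5.95 in OSCA23, 6.40 in OSCA59, 6.64 in OSCA75 and 8.21 in OSCA71, on both sides of the hemangiosarcoma median. OSCA71, the osteosarcoma line with the lowest OSMR level, had the highest LIFR level of the series on this probe set. In lymphoid tumors LIFR lay between 4.19 and 5.22, below the array median on all 16 arrays. A second LIFR probe set was above the array median on all 10 hemangiosarcoma arrays but on only 2 of the 5 osteosarcoma arrays, OSCA71 at 7.08 and OSCA20 at 6.10.

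IL6ST, which encodes the gp130 chain shared by these cytokines, was measured by 1 probe set. It lay above the array median in all 10 hemangiosarcoma lines, from 5.79 in Journey over a median of 6.10 to 7.42 in Joey, and in all 3 hematoma cultures, at 7.33 in Pippin, 6.20 in Baxter and 6.84 in Kylie. These ranges overlapped. In osteosarcoma it was above the median in OSCA20 alone, at 6.71, against 5.40 in OSCA23, 4.77 in OSCA59, 3.92 in OSCA75 and 5.49 in OSCA71. In the lymphoid tumors the level was 4.17 to 5.70 on 15 arrays and 7.45 in the T-zone lymphoma of Rose, the highest IL6ST value of the series.

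IL6R, the chain that binds interleukin 6 itself, had the opposite distribution. Its representative probe set was between 5.29 and 5.98 in hemangiosarcoma, 5.09 and 5.70 in hematoma and 5.45 and 5.88 in osteosarcoma, close to the array medians throughout. All 16 lymphoid tumors lay above these cultures, from 6.43 in Rose over a median of 7.79 to 8.51 in the diffuse large B cell lymphoma of Kaycee. The other IL6R probe set did not separate them: it was between 5.21 and 5.83 in hemangiosarcoma and between 5.13 and 6.14 in lymphoid tumors, above the array median on 9 of 34 arrays. The 2 probe sets therefore give different pictures of IL6R, and which one reads the transcript better was not tested.

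The ligand genes were mostly at or below the middle of the array. OSM, the gene for oncostatin M, ran from 3.78 to 4.95, and LIF from 3.62 to 4.42, and neither rose above the array median on any of the 34 arrays. IL11 did so on 3 arrays, at 6.02 in Dal4, 5.78 in Journey and 5.76 in Maddle. Values this low were not set against a detection call, so they do not show that a cytokine was absent.

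IL6 was the ligand gene with the widest range. It was above the array median on 4 of 34 arrays: the osteosarcoma lines OSCA75 at 7.29 and OSCA59 at 6.41, the marginal zone lymphoma of Bitsy at 7.21 and the hemangiosarcoma line DD1 at 5.88. The other osteosarcoma lines were at 4.65 in OSCA20, 4.90 in OSCA23 and 3.50 in OSCA71, so that the group held both the lowest and the highest IL6 value of the series. Hemangiosarcoma lines ran from 3.84 in Joey over a median of 4.52 to 5.88 in DD1, with ChadP9 next at 5.65. The hematoma cultures were narrowly spaced below them, at 3.65 in Pippin, 3.70 in Baxter and 3.55 in Kylie. T-zone lymphomas were between 3.62 and 4.17, and diffuse large B cell lymphomas between 3.56 and 5.10.

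SOCS3, the inhibitor that STAT3 induces, exceeded the array median on 1 of 34 arrays, the T-zone lymphoma of Fire at 6.10. Elsewhere it lay between 3.90 and 5.16, and its other probe set was highest in Fire too, at 4.74.

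**Figure D2:**
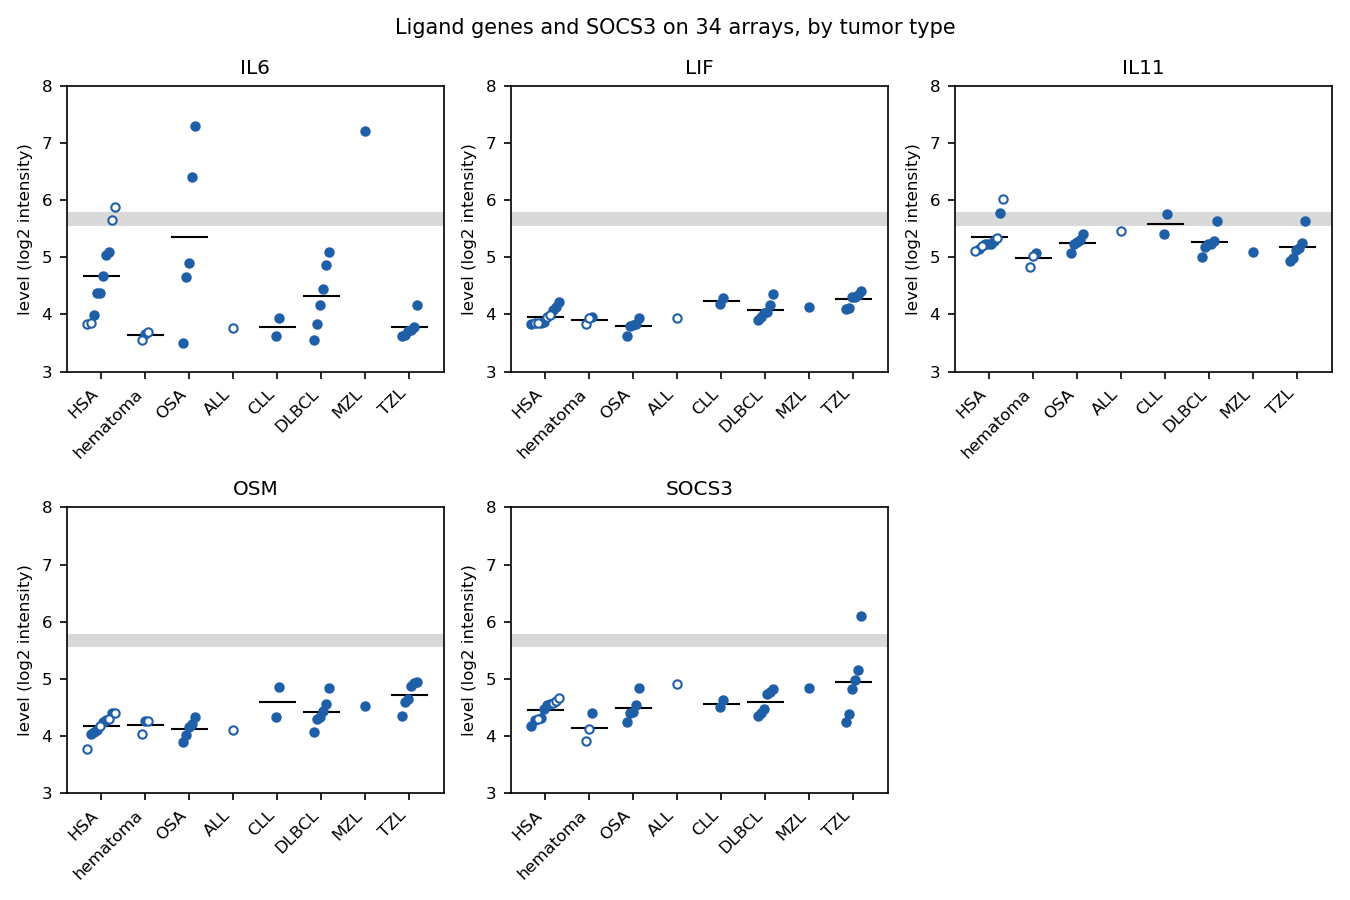
Levels (log2 intensity, vertical axis) of IL6, LIF, IL11, OSM and SOCS3 on each of 34 arrays by tumor type, with groups, points, lines and band as in the plot of receptor levels. LIF and OSM stay below the band everywhere, and IL6 passes it on 4 arrays, up to 7.29 in OSCA75.

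STAT3, the main signal carrier of the family, was read by 4 probe sets, and 3 of them lay above the array median on all 34 arrays. On the one with the highest mean, the hemangiosarcoma lines ran from 9.33 over a median of 9.66 to 10.07, and the hematoma cultures were at 9.70 in Pippin, 9.41 in Baxter and 9.63 in Kylie. The osteosarcoma lines were more spread, at 10.36 in OSCA20, 10.00 in OSCA23, 10.37 in OSCA59, 8.93 in OSCA75 and 8.95 in OSCA71. The probe set with the lowest mean told these lines apart in another way. It was at 7.84 in OSCA20 and at 5.23 in OSCA23, 4.51 in OSCA59, 4.30 in OSCA75 and 4.32 in OSCA71, whereas hemangiosarcoma lines were between 6.87 and 8.39 and hematoma cultures between 7.29 and 7.78. OSCA59 thus held the highest STAT3 level among sarcoma lines on one probe set and a level below its array median on another. The difference between the 3′ and 5′ actin controls, a sign of RNA integrity, was 0.76 in OSCA20 and 0.40 in OSCA23 but 1.80, 1.85 and 1.55 in OSCA59, OSCA75 and OSCA71, against −0.08 to 1.28 in hemangiosarcoma, and its part in the disagreement of the probe sets was not tested.

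**Figure D3:**
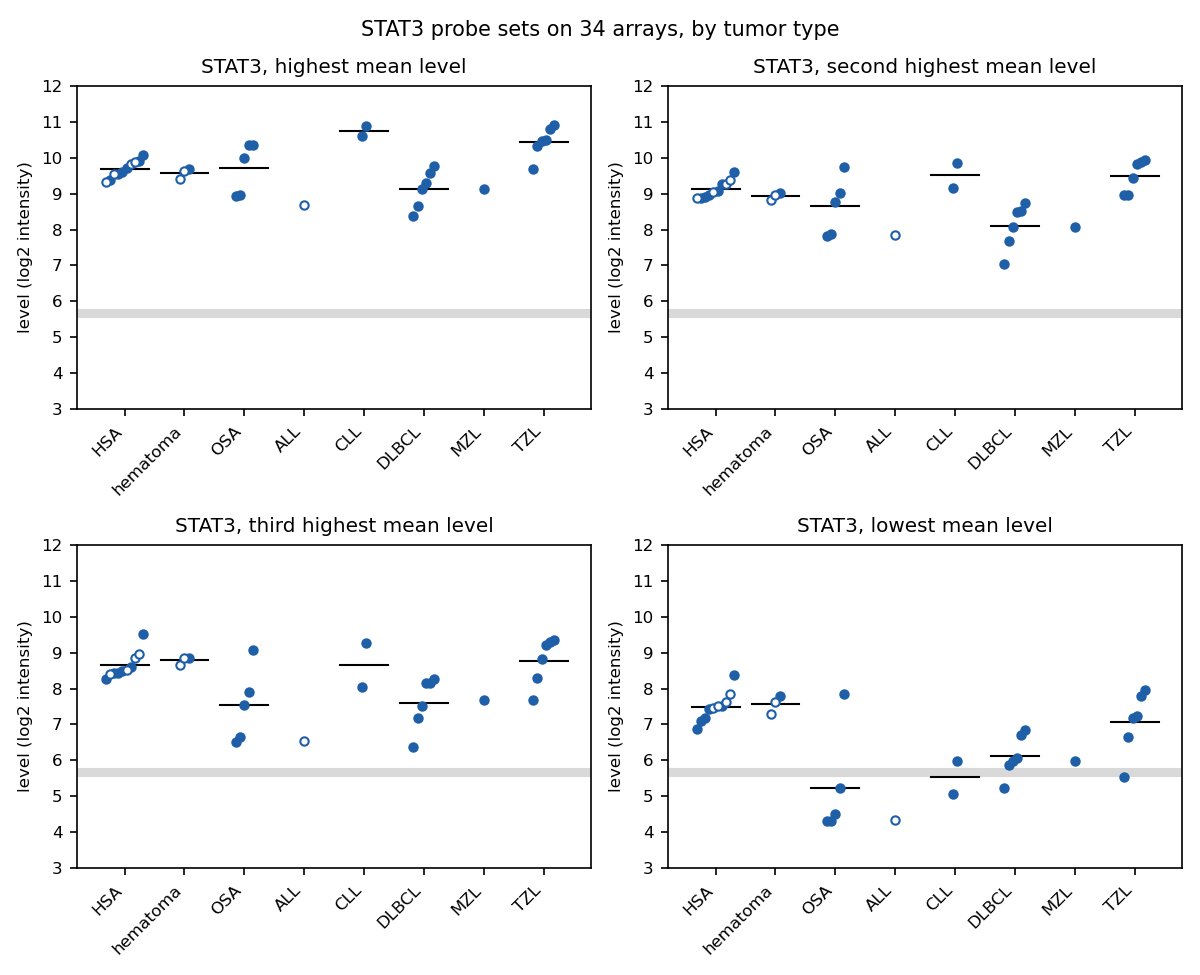
Levels (log2 intensity, vertical axis) of the 4 STAT3 probe sets on each of 34 arrays by tumor type, ordered by mean level, with groups, points, lines and band as in the plot of receptor levels. On the lowest probe set OSCA20, at 7.84, lies apart from the other osteosarcoma lines at 4.30 to 5.23.

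Hemangiosarcoma lines were set against hematoma cultures to compare cells grown from a malignant and from a non-malignant vascular lesion. OSMR differed by +2.31 on the log2 scale, a 4.94-fold higher level, and LIFR by +1.48 and, on its second probe set, +1.21. IL6ST differed by −0.42, IL6R by +0.18 and STAT3 by +0.10 on its representative probe set, with overlapping groups. IL6 differed by +1.04, IL11 by +0.38 and the second SOCS3 probe set by +0.35 without overlap of the groups, all below the level needed for a test. How often probe sets at such low levels do not overlap was not counted, so nothing is read from these separations. IL6 was also named by the study in its gene set analysis of this comparison. LIF differed by +0.05 and SOCS3 on its representative probe set by +0.31, while OSM had means of 4.18 and 4.19. Of the 5 members that entered the fit, 1 passed at an adjusted p under 0.1, where 0.266% of 23341 probe sets did (0.133% higher and 0.133% lower), and 1 did not overlap, where 1.56% of probe sets did not. As OSMR was chosen on this comparison, nothing is read from that count. Its difference was between +1.94 without Baxter and +2.54 without Kylie, and +2.43 without ChadG4 and Dal4 together. These runs reuse the arrays on which OSMR was chosen, so nothing is read from them either. Of 14 response genes measured here, TIMP1 (+2.44) and JUNB (+1.05) did not overlap, beside the same 1.56% of probe sets. JUNB did not pass (limma, adjusted p = 0.286). TIMP1, like OSMR, is in the list of genes that the study itself reported from this comparison, so nothing is read from its separation. The mean of the fibroblast and mural markers was 10.22 to 11.88 in these lines and 11.29 to 12.13 in the hematoma cultures.

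OSMR and LIFR are adjacent genes in the RefSeq annotation of the dog genome (assembly UU_Cfam_GSD_1.0).

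Against osteosarcoma, a sarcoma of bone grown as lines from the same breed, the 6 Golden Retriever hemangiosarcoma lines had more OSMR. The level was 9.38 ± 0.48 (SD, n = 6) against 7.41 ± 1.02 (SD, n = 5), a difference of +1.97 (standard error 0.42) or 3.93-fold (limma, adjusted p = 0.0104). The groups overlapped through OSCA20, and without it the difference was +2.41 (adjusted p = 2.67e-04). IL6ST differed by +1.13 (standard error 0.44, adjusted p = 0.101), and without OSCA20 by +1.49 (adjusted p = 0.0185). LIFR differed by +0.40 (standard error 0.39, adjusted p = 0.511) and IL6R by −0.16 (standard error 0.16, adjusted p = 0.526). STAT3 gave −0.02 (standard error 0.29, adjusted p = 0.974) on its representative probe set and +2.17 (adjusted p = 0.0264) on the one with the lowest mean, with +0.46 (adjusted p = 0.355) and +1.09 (adjusted p = 0.0948) on the other 2. In all, OSMR alone of the 5 members tested passed at an adjusted p under 0.05, beside 16.4% of all 22167 probe sets tested (9.46% higher and 6.9% lower), and IL6, LIF, IL11, OSM and SOCS3 were too low to be tested. The groups overlapped for all 5, where 8.53% of probe sets showed no overlap. With OSCA20 left out, or with all 10 hemangiosarcoma lines (adjusted p = 0.0414), IL6ST passed as well, making 2 of 5. OSCA20 had the highest OSMR and IL6ST levels of the osteosarcoma lines, so leaving it out could only widen these differences. It was also the only osteosarcoma line with IL6ST above its array median (6.71). Without OSCA20 the gene was tested through hemangiosarcoma arrays alone, and nothing is read from that pass. The calls over all probe sets rose too, from 3627 to 4949 and 6378. The fibroblast and mural markers had a mean of 12.52 in OSCA20 and of 10.81 to 12.27 in the other osteosarcoma lines. The hemangiosarcoma arrays in this comparison and the next are among those on which OSMR, and TIMP1 of the response genes, had been singled out. IL6 and the response gene CCND1 had also been named by the study, from its gene set analysis of hemangiosarcoma against hematoma.

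The other genes of the pathway were counted by list, and their counts stand beside the same 16.4% of all probe sets. Of 4 further ligands on the array 1 could be tested and passed: CTF1, which encodes cardiotrophin, was +0.83 higher in hemangiosarcoma (adjusted p = 0.0331). None of 3 tested further receptors and none of 5 JAK and STAT genes passed on their representative probe sets. For the kinase JAK1 that probe set gave −0.07, but 2 of its other 4 passed in opposite directions, at +2.36 (adjusted p = 0.0287) and −2.03 (adjusted p = 0.0054). IL11RA, the receptor of interleukin 11, had 5.69 against 6.75 (difference −1.06, adjusted p = 0.0716). Of 6 tested inhibitors and phosphatases, PTPN11, the phosphatase SHP2 that docks on gp130, was +0.99 higher (adjusted p = 0.0344). Of 13 tested genes that respond to the family, TIMP1, an inhibitor of matrix metalloproteinases, was +1.37 higher (adjusted p = 0.00326), while LCN2, an acute phase protein (−3.35, adjusted p = 0.0368), and IRF1, a transcription factor (−0.94, adjusted p = 0.0122), were lower. The median difference of these 13 genes was +0.03, beside +0.01 over all probe sets tested.

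The calls on TIMP1 and IRF1 held without any single array, and TIMP1 missed the threshold when all 34 arrays shared 1 fit (adjusted p = 0.069). For IRF1 this refers to its representative probe set. Its other probe sets gave −0.89 (limma, adjusted p = 0.0358) and −0.61 (adjusted p = 0.116). The call on CTF1 was lost without ChadG6, ChadG8, Frog, Journey, Tucker, OSCA75 or OSCA71 (adjusted p up to 0.0762) and that on PTPN11 without ChadG6, ChadG8, Frog, OSCA59 or OSCA75 (up to 0.078). LCN2 kept its call only without Tucker or OSCA71 (otherwise up to 0.0857).

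**Figure D4:**
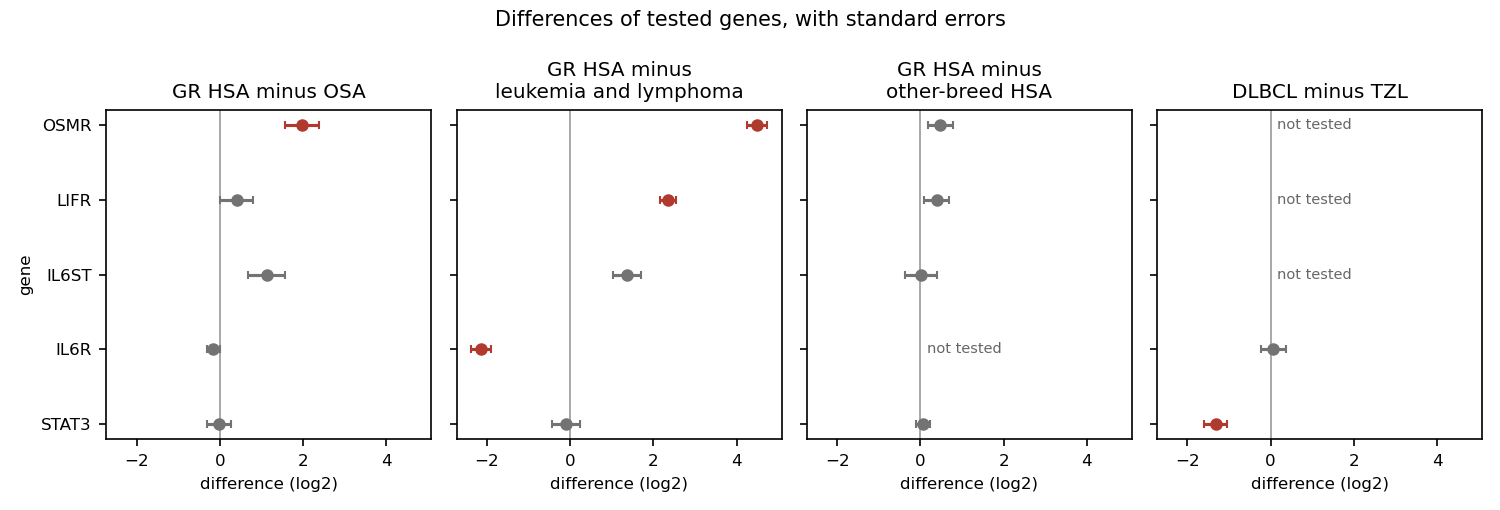
Differences (log2, horizontal axis) of the representative probe sets of OSMR, LIFR, IL6ST, IL6R and STAT3 in 4 comparisons, with standard errors as bars; GR, Golden Retriever. Red points passed the threshold of their comparison, gray ones did not, and genes below the level filter are given as not tested; OSMR differs by +1.97 from OSA and by +4.49 from leukemia and lymphoma.

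Against the leukemias and lymphomas, all but Rascal from purebred Golden Retrievers, the hemangiosarcoma lines had more OSMR and LIFR and, on 1 of 2 probe sets, less IL6R. OSMR was 9.38 ± 0.48 (SD, n = 6) against 4.89 ± 0.51 (SD, n = 16), a difference of +4.49 (standard error 0.24; limma, adjusted p = 1.43e-13). As OSMR was below the array median on 15 of the 16 lymphoid arrays and LIFR on all 16, the size of both differences depends on how RMA places low values. LIFR differed by +2.35 (standard error 0.19, adjusted p = 2.79e-10), and by +2.04 on its second probe set (adjusted p = 7.17e-07). IL6R differed by −2.13 (standard error 0.24, adjusted p = 1.06e-07), or 4.38-fold, but by −0.21 on its other probe set (adjusted p = 0.227). For these 3 genes the groups did not overlap on the representative probe sets. IL6ST differed by +1.37 (standard error 0.34, adjusted p = 0.00193), which missed the threshold of 0.001 set for this comparison, and by +1.53 (adjusted p = 1.53e-05) without Rose. STAT3 differed by −0.10 (standard error 0.35, adjusted p = 0.826), and its other 3 probe sets by +0.33 to +1.13, none past the threshold. In all, 3 of 5 members tested passed, 2 higher and 1 lower, beside 26% of 24586 probe sets (14.6% higher and 11.4% lower). Without Rose 4 did, while the calls over all probe sets went from 6401 to 6363. Rose had the highest IL6ST level of the series, so leaving it out could only widen that difference, and nothing is read from that pass. IL6ST was above the array median on 2 of the 16 lymphoid arrays and had entered the test through the hemangiosarcoma lines. The 3 that did not overlap stand beside 16.3% of probe sets without overlap, and each had entered the test through the group in which it was high. Cultured and primary cells cannot be told apart from tumor type here, and in bulk RNA a smaller number of expressing cells cannot be told apart from less RNA in each.

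Counts in the rest of the pathway stand beside the 26% of all probe sets that passed here, at a stricter threshold than against osteosarcoma. Lower in hemangiosarcoma were the cytokine subunit EBI3 (−1.50, adjusted p = 6.18e-04), the cytokine receptor chain IL27RA (−2.91, adjusted p = 7.31e-09), the kinases JAK1 (−0.95, adjusted p = 1.87e-04) and JAK2 (−0.97, adjusted p = 6.39e-04), and STAT5A (−2.88, adjusted p = 1.87e-11). These were 1 of 2 tested ligands, 1 of 3 receptors and 3 of 5 kinases and STATs, and the 5 probe sets of JAK1 ran from −2.57 to +0.24. The calls on EBI3 and JAK2 were lost whenever any 1 of the 6 hemangiosarcoma lines was left out (adjusted p up to 0.00194 and 0.00285), and that on JAK2 also with median-centered arrays (0.00116) and with lymphomas only (0.00197). Of 7 tested inhibitors, PTPN6, the phosphatase SHP1 of blood cells (−6.22, adjusted p = 9.37e-13), and PIAS1, a SUMO ligase (−1.72, adjusted p = 3.89e-06), were lower, and PTPN11 was +2.21 higher (adjusted p = 1.63e-08). A second PTPN6 probe set gave −0.51. PTPN6 and EBI3 were too low to be tested between hemangiosarcoma and osteosarcoma lines, or between breeds. Both entered this test through the lymphoid arrays, in which they were higher, so nothing is read from their passing. PTPN11 was too low to be tested between diffuse large B cell and T-zone lymphoma. Of 14 response genes, TIMP1 was +5.79 higher (adjusted p = 1.61e-05), the cyclin CCND1 +4.43 (adjusted p = 6.63e-09) and the adhesion molecule ICAM1 +3.44 (adjusted p = 3.45e-06), and IRF1 was lower (−2.51, adjusted p = 3.37e-05). Their median was +0.29, beside −0.13 over all probe sets tested.

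Marker lists of other cells moved with this comparison as well. The mean level of 9 fibroblast and mural markers was 10.43 to 11.88 in Golden Retriever hemangiosarcoma lines and 5.38 to 8.69 in the lymphoid tumors, and that of 11 myeloid markers was 5.12 to 5.42 and 6.66 to 8.44. Lymphocyte markers, here 7 of T cells and 4 of B cells, had means of 5.14 to 6.24 and 4.17 to 4.60 in these lines, and of 7.90 to 11.26 and 6.25 to 9.79 in the lymphoid tumors. On each of these 6 lines 4 of 11 myeloid, 3 to 5 of 7 T cell and 0 of 4 B cell markers lay above the array median, against 6 to 9, 6 to 7 and 2 to 4 in the lymphoid tumors. The 7 myeloid markers CSF1R, CD163, LYZ, ITGAM, FCGR1A, AIF1 and C1QB were above it on no hemangiosarcoma array. The other 4, CD14, CD68, MRC1 and C1QA, were above it on all 6 of these lines. The part of these cell types in the differences was not tested.

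Among the hemangiosarcoma lines, those of Golden Retrievers were set against those of other breeds. No member passed the test. OSMR was 9.38 ± 0.48 (SD, n = 6) in Golden Retriever lines and 8.90 ± 0.52 (SD, n = 4) in the others, a difference of +0.48 (standard error 0.29), and LIFR differed by +0.39 (0.30), IL6ST by +0.02 (0.38) and STAT3 by +0.06 (0.17), each with an adjusted p of 0.999 in limma. Of the 4 members tested 0 passed at an adjusted p under 0.1, beside 0% of 22244 probe sets, with limma's default and with its trended robust prior. Without the adjustment 228 probe sets were higher and 515 lower with p under 0.05, and 0.409% of those tested showed no overlap between the groups, whereas the groups overlapped for all 4 members. The lowest OSMR levels, in Dal4 and ChadP9, and the 3 highest, in Frog, Tucker and ChadG8, fell in different breed groups, with the ranges overlapping from 8.84 to 9.42. No gene of the 5 pathway lists passed either.

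Within hemangiosarcoma the receptor genes were compared line by line, for the 3 members above the array median on at least 3 of the 10 arrays that spanned at least 1 log2 unit. OSMR and IL6ST had r = 0.551 (Spearman rho = 0.297) over 10 lines, with permutation p = 0.1 and 0.408. LIFR and IL6ST had r = 0.367 (rho = 0.297, permutation p = 0.3 and 0.407) and OSMR and LIFR r = 0.18 (rho = 0.285, permutation p = 0.628 and 0.427). After adjustment over the 3 pairs the p-values of r were 0.3, 0.45 and 0.628, and those of rho 0.427 each. Without the 2 lines farthest from the median of the first gene of the pair, r was 0.439 for OSMR and IL6ST, 0.244 for LIFR and IL6ST and 0.29 for OSMR and LIFR. The value for OSMR and LIFR depended on ChadG4 and Dal4, the 2 lines least correlated with the other hemangiosarcoma lines (0.956 and 0.955 on average), which had high LIFR (8.05 and 7.28) with OSMR below the median of the group. Without both, r was 0.881 over 8 lines, and this 1 of 3 pairs then passed at an adjusted p under 0.05. These 2 lines went against the trend of the others, so leaving them out raises r by construction. Nothing is read from this pass. ChadG4 and Dal4 also had the lowest fibroblast and mural marker means of the 10 lines, 10.43 and 10.22. Frog and Tucker were the 2 highest lines for OSMR and among the 3 highest for IL6ST.

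A comparison of the 2 largest lymphoma groups addressed the family in primary tumor cells. STAT3 was lower in diffuse large B cell lymphoma than in T-zone lymphoma. On its representative probe set the former ran from 8.37 in Benson over a median of 9.21 to 9.78 in Chieftain, and the latter from 9.70 in Rose over a median of 10.48 to 10.90 in Shilo. Only Chieftain and Rose overlapped. The difference was −1.32 (standard error 0.27), or 2.50-fold (limma, adjusted p = 0.00456), and the other 3 probe sets gave −1.41 (adjusted p = 0.00535), −1.16 (adjusted p = 0.0407) and −0.95 (adjusted p = 0.11). IL6R differed by +0.07 (standard error 0.29, adjusted p = 0.913). Thus 1 of 2 members tested passed, beside 18.4% of 21799 probe sets, and neither was without overlap on its representative probe set, as 7.74% of probe sets were. STAT3 passed without any single array too, with adjusted p between 0.00174 and 0.0137. OSMR, LIFR, IL6ST and the ligand and SOCS3 genes were too low to be tested between these lymphomas.

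Most of the response genes tested were lower in diffuse large B cell lymphoma. Of 12 tested, 8 were lower and 0 higher, beside 9.31% and 9.13% of all probe sets, with a median difference of −1.57 beside +0.04. The largest differences were those of TIMP1 (−2.43, adjusted p = 0.0148), the transcriptional repressor BCL6 (−2.41, adjusted p = 0.00113) and the kinase PIM1 (−1.69, adjusted p = 0.0463). The other 5 were the AP-1 subunit JUNB (−1.67), the survival gene BCL2L1 (−1.65), IRF1 (−1.64), CCND1 (−1.49) and ICAM1 (−1.34). The further probe sets of IRF1, CCND1 and ICAM1 passed as well. That of PIM1 did not (−0.72, limma, adjusted p = 0.0755), and that of BCL2L1 (−0.35) was too low to be tested. MYC, at +1.05 (adjusted p = 0.0935), had the largest positive difference of the 4 that did not pass. These genes respond to other cytokines as well. Leaving out single arrays gave between 6 and 9 calls. The call on JUNB was kept only without Chieftain, Rose or Thunder (otherwise adjusted p up to 0.109) and that on PIM1 only without Kaycee or Rose (up to 0.0984), and both were lost without a level filter (0.088 and 0.0832).

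**Figure D5:**
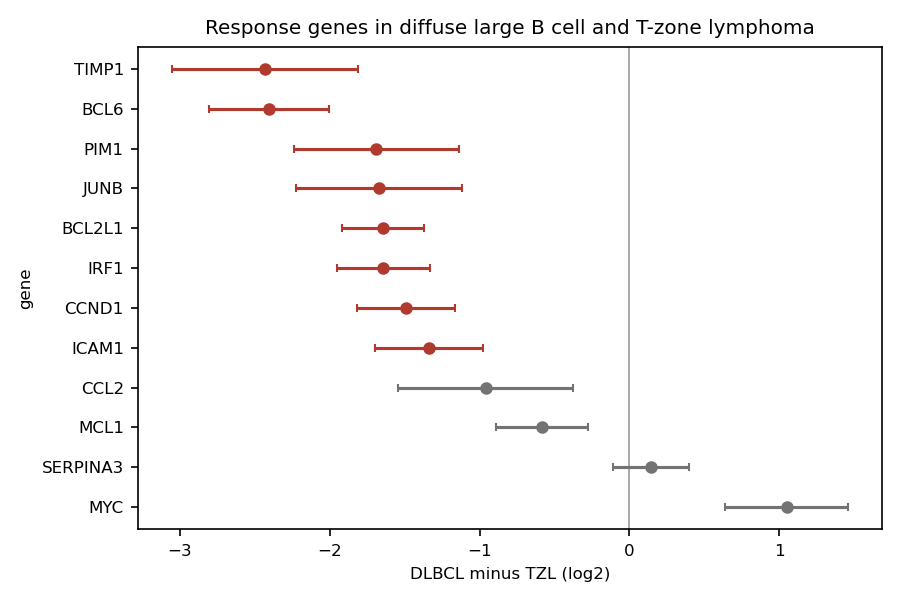
Differences (log2, horizontal axis) of 12 response genes between diffuse large B cell lymphoma (DLBCL) and T-zone lymphoma (TZL), with standard errors as bars. Red points passed at an adjusted p under 0.05 and gray ones did not; 8 genes lie between −2.43 (TIMP1) and −1.34 (ICAM1), and MYC is at +1.05.

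Of the other pathway genes tested between these lymphomas, IL27RA was lower in diffuse large B cell lymphoma (−0.83, adjusted p = 0.0135, 1 of 2 receptors), as was CISH, a SOCS family inhibitor (−2.30, adjusted p = 0.00469, 1 of 5 inhibitors), and 0 of 2 ligands and 0 of 5 kinases and STATs passed. CISH ran from 5.28 to 5.82 in diffuse large B cell lymphoma and from 5.44 in Rose to 9.27 in Shilo in T-zone lymphoma. Both kinds of lymphoma held markers of T and of B cells. The mean of the T cell list was 8.39 to 8.91 in diffuse large B cell lymphoma and 10.19 to 11.26 in T-zone lymphoma. That of the B cell list was 8.96 to 9.79 and 7.24 to 9.19. Of its 4 markers, MS4A1, CD79A and CD79B were above the array median on every array of both kinds. PAX5 was above it on no T-zone array, and in diffuse large B cell lymphoma in Benson alone. The myeloid list had means of 6.88 to 7.94 and 6.66 to 8.44, the fibroblast and mural list 5.38 to 8.69 and 5.38 to 7.02, and the actin difference was −0.31 to 2.95 and −1.81 to 2.19. The part of these cells and of RNA integrity in the differences was not tested.

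The genes whose levels followed OSMR most closely were found by correlation over 11325 genes, as a description without a test. Over the means of the 8 tumor type labels these were AADAT (r = 0.985), SPP2 (0.981), SH3GL3 (0.98), PRKD1 (0.979) and GLRB (0.978). SPP2, for example, had a mean of 9.94 in hemangiosarcoma, 7.12 in hematoma and in osteosarcoma, and 3.70 to 3.89 in the lymphoid labels. AADAT had a mean of 5.718 in hemangiosarcoma, within the range of the array medians, and of 4.144 to 5.371 in the other labels, below it. These points share the split between cultured and primary cells. Over the 10 hemangiosarcoma lines the highest were FGF18 (r = 0.88), LRP10 (0.858), CFI (0.85), TNFAIP8L3 (0.847) and GPX7 (0.842), none of which was among the first 5. FGF18 and TNFAIP8L3 had means of 5.295 and 4.454 in these lines, below the range of the array medians.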

How the data were processed

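RNA from 34 canine samples, each hybridized to 1 Affymetrix Canine_2 array, was compared by the tumor type and breed labels. The unit is log2 intensity, deposited by the authors after RMA summarization. The submitters' processing notes name RMA and the affy package. Their versions, and whether all arrays went through 1 run, are not given in the sources used here. RMA brings arrays to a common distribution, so a shift of all genes cannot be seen, and it compresses low values. No further normalization was applied. Of 43035 probe sets, 175 are controls and were not used. Symbols came from the platform annotation, in which 29254 probe sets have 1 symbol and were read as genes, while 439 have several and were not. All 10 members matched RefSeq by gene number.

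The probe set with the highest mean over 34 arrays represents a gene. A probe set was tested if it exceeded the array median on a number of arrays no smaller than the size of the smaller group. Fits used limma 3.58.1 (R 4.3.3), and p-values were adjusted by Benjamini-Hochberg over every probe set tested. Thresholds of the adjusted p were 0.05, for leukemia and lymphoma 0.001, and for breed and hematoma 0.1. The fits were tested on simulated data. Correlations used 100000 two-sided permutations (Python 3.11.15, scipy 1.17.1), and figures used matplotlib 3.10.9. The number of arrays limits the precision, and p-values measure the spread between dogs or lines.

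The members and the pathway and marker lists were chosen with earlier results of these data known. Beside the members, the text gives up to 3 genes of each pathway list with the largest differences that passed, and the 5 genes most like OSMR. IL11RA, MYC, the levels of SPP2 and AADAT and the remaining genes that passed were singled out after their values were seen. The array annotation gives no probe set of their own to CNTF, IL31, CEBPB, CEBPD and LBP, and some listed genes are not reported here. Alternatives were no filter, median centering, quantile normalization, a trend with a robust prior, all arrays in 1 fit, another probe set for a gene, other choices of arrays, and leaving out single arrays in turn, which for the 16 lymphoid arrays in their comparison with hemangiosarcoma was done for Rose alone. The values without Rose in the comparison with leukemia and lymphoma, and those of all probe sets of the members without OSCA20 or Rose, were added after seeing the data.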

Additional observations from a re-analysis of the deposited data

Results flagged for a closer look

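The lowest and highest arrays of each group of 4 to 10 were checked for a gap to the rest with Dixon's criterion, which chance meets in about 1 in 20 groups, and 5 of 64 checks met it. The T-zone lymphoma of Rose stood apart with IL6ST at 7.45, where the other 5 were at 4.51 to 5.50, and with IL6R at 6.43, where they were at 7.89 to 8.23. In Rose the T cell list had a mean of 10.61, the myeloid list 7.12 and the fibroblast and mural list 5.38, each within or at the lower end of the range of its group. The actin difference of Rose, −1.81, was the lowest of all arrays. Its mean correlation with its own group, 0.943, was the lowest among T-zone lymphomas. The part of either in these values was not tested. The diffuse large B cell lymphoma of Kaycee had IL6R at 8.51, where the others were at 7.53 to 7.86. IL6 in the T-zone lymphoma of Fire, at 4.17, lay above 3.62 to 3.78 in the others, all below their array medians. The osteosarcoma line OSCA20 had the STAT3 probe set of lowest mean at 7.84, where the others were at 4.30 to 5.23.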

How the results depend on the processing

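Against osteosarcoma, the 1 member that passed became 2 with all 10 hemangiosarcoma lines (IL6ST, adjusted p = 0.0414 in limma) and 1 to 2 with single arrays left out, the second again IL6ST without OSCA20. The 3627 probe sets called there became 6378 with all 10 lines and between 2139 (without Frog) and 4949 (without OSCA20) with single arrays left out. Against leukemia and lymphoma, 8 response genes in place of 4 passed when all 34 arrays shared 1 fit, and IL6ST passed with all 10 lines (adjusted p = 1.56e-04). Between breeds 0 to 1 probe sets passed with single arrays left out, the 1 without ChadG4 or DD1. Between hemangiosarcoma and hematoma the 62 calls became 180 with all 34 arrays in 1 fit and between 7 (without Baxter) and 200 (without Pippin) with single arrays left out. Of the member correlations, 1 pair passed without ChadG4 and Dal4, the lines that went against its trend. Apart from single arrays left out, 5 main values moved and 96 did not, and of the values of single genes 8 lost and 2 gained a call, 2 moved and 385 kept theirs. Beside the genes given with the results, LCN2 lost its call without a level filter (adjusted p = 0.054), CTF1 with all arrays in 1 fit (0.0821) and JUNB after quantile normalization (0.0665). No value that had passed changed direction under any alternative run. The cause was not tested. No paired analysis was possible because the labels give the groups no shared replicate numbers. Groups of 3 to 6 arrays and probe sets near the array median limit what differences could be seen.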
